A study of Mus musculus with 8 samples.

Results

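The 9 genes described here encode enzymes of serine synthesis (Phgdh, Psat1 and Psph) and of the folate one-carbon cycle (Shmt1, Shmt2, Mthfd1, Mthfd1l, Mthfd2 and Aldh1l2). They were listed by symbol with earlier results of these data known, and each symbol matched a single row. Together they make up 9 of the 26642 rows of the count table. The mRNA came from CT26, a colon carcinoma cell line of the mouse, kept in RPMI 1640 medium with fetal bovine serum and penicillin-streptomycin. The 2 groups were unedited cells (genotype WT, 4 libraries) and cells labelled Tead1/4 knockout (4 libraries), and the series asks how their transcript profiles differ. TEAD1 and TEAD4 are transcription factors that bind DNA for the coactivators YAP and TAZ. The labels do not say how the knockout was made, how many clones it represents or whether the replicates were separate cultures, so the p-values below speak of the spread among these 8 libraries, and that spread may be technical.

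Serine synthesis branches off glycolysis. PHGDH oxidises the glycolytic intermediate 3-phosphoglycerate, PSAT1 transfers an amino group to the product from glutamate, and PSPH removes the phosphate to leave serine. SHMT1 in the cytosol and SHMT2 in mitochondria then split serine into glycine and a carbon unit carried on tetrahydrofolate. In mitochondria MTHFD2 and MTHFD1L carry that unit on towards formate, while ALDH1L2 burns it to carbon dioxide and makes NADPH. In the cytosol MTHFD1 takes formate back into the folate pool, from which purines and thymidylate are built. Tumour cells often express the mitochondrial enzymes at high levels, and the transcription factor ATF4 is a known activator of several of these genes.

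Levels are given as CPM (counts per 1000000, scaled to the effective size of the library), and differences as the knockout level against WT from edgeR's quasi-likelihood fit over all rows. Library totals lay between 29679405 and 32774905 counts. The targeted mRNAs were lower but still detected: Tead1 was at 67.5 ± 12.4 CPM in the knockout and 206 ± 80.8 CPM in WT (SD, n = 4 each; edgeR adjusted p = 0.00217), and Tead4 at 29.3 ± 6.08 against 47.8 ± 12.2 CPM (edgeR adjusted p = 0.0261). The Tead4 ranges overlapped (exact permutation p = 0.0571), and its call was lost with upper-quartile factors (adjusted p = 0.0692), library size only (0.08) or summed WT pairs (0.0653) and without WT replicate 1 or 4 or knockout replicate 2 or 3 (0.0601 to 0.08). Counts cover whole genes, so they do not measure the loss of protein. Of 10 epithelial markers only Krt8, Krt18 and Krt20 passed the filter on low counts, and Epcam was at 0 in every library. Krt18 was called higher in the knockout (mean 38.5 CPM in WT and 76.3 in the knockout, edgeR adjusted p = 0.00107). Krt8 (0.328 and 0.896 CPM) and Krt20 (34.6 and 47.4 CPM) were not called. Of 12 leukocyte and 6 endothelial markers, 1 each passed the filter, Lyz2 and Vwf, with Cd3e and Kdr among those at 0. Both were higher in the knockout, at low levels: Lyz2 went from a mean of 0.254 to 2.39 CPM and Vwf from 0.118 to 5.58 CPM. Of 10 fibroblast markers 6 passed, and 4 of them were called higher in the knockout, against 20.9% of all rows tested. By WT and knockout means the 4 were Dcn (0.0355 to 7.83 CPM), Pdgfra (8.01 to 35.9), Col3a1 (31.3 to 143) and Pdgfrb (39.7 to 84.9). The summed level of the 10 was 1409 to 2127 CPM in WT and 1746 to 2341 in the knockout. Most of it was Col1a2 (mean 1418 CPM in WT and 1519 in the knockout), which, like Col1a1, was not called. The part of other cells in the results below was not tested. Knockout replicate 1 stood apart from the other knockout libraries, with a count above 0 in 14345 rows against 17759 to 17948, and the WT libraries fell into similar pairs, replicates 1 and 4 and replicates 2 and 3.

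All 9 enzyme mRNAs were lower in the knockout libraries. Each passed edgeR's test at an adjusted p under 0.05, with fitted decreases between 1.74-fold for Psph and 2.87-fold for Shmt2 and a median log2 fold change of -1.26. Over all 13265 rows tested, 20.6% were called lower and the median log2 fold change was 0.02. The decrease was at least 2-fold for 8 of the 9, all but Psph, against 8.56% of all rows. Since the 9 genes were chosen with earlier results of these data known, the shares over all rows are a description only. For 7 of the 9 genes the 4 knockout values all lay below the 4 WT values, a pattern found in 19.6% of all rows. Phgdh and Psph were the exceptions, and in both the overlap came from knockout replicate 1. In replicates 2 to 4 all 9 genes were below every WT library, as were 28.3% of all rows and 97.3% of rows called lower. All 9 remained on the negative side in every alternative tried, those with another scaling included. Their calls did not: 5 of 9 passed when the similar WT libraries were summed in pairs, and none when the level of a G2/M gene list, which itself differs between the genotypes, was added as a covariate. Over all rows tested, 10.3% were called lower in the former fit and 0.641% in the latter. All 9 enzymes had an unadjusted p under 0.05 in the former fit and 4 in the latter. In bulk RNA, fewer cells of a kind and less RNA per cell cannot be told apart.

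**Figure D1:**
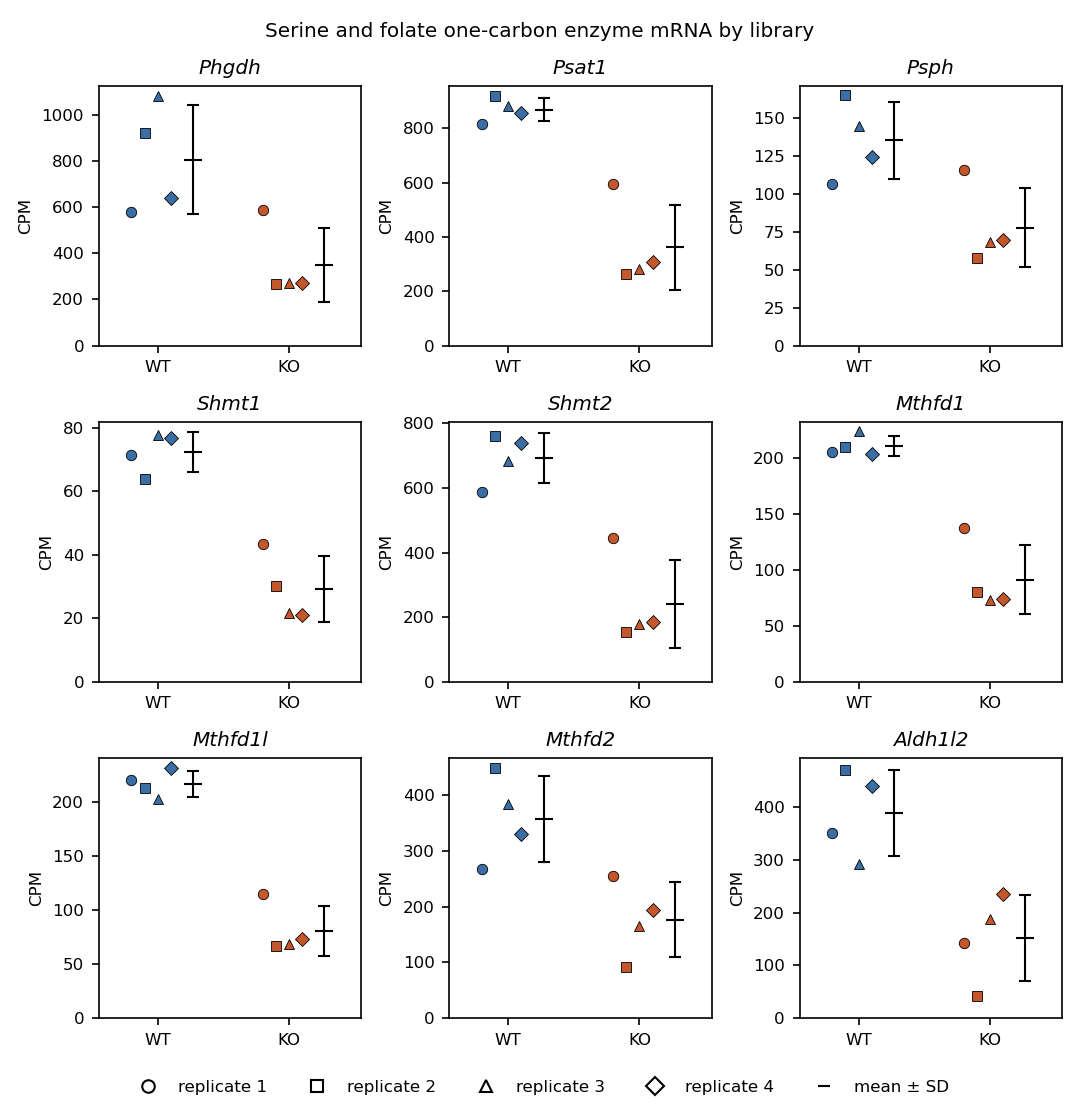
CPM of each of the 9 enzyme genes in the 4 WT (blue) and 4 knockout (orange, KO) libraries, with a symbol for each replicate and the mean ± SD in black. Knockout replicate 1 (circle) is the highest knockout library for 8 of the 9 genes, and it overlaps WT for Phgdh and Psph.

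The sequences before the start sites are shown because these genes moved together. RefSeq start sites on GRCm38.p6 were matched for 8 of the 9 symbols, at 9 start sites in all. Aldh1l2 had none. Each window is the 250 bases before the start, written 5′ to 3′ on the strand of the gene. Capitals mark the CCAAT box (CCAAT, or ATTGG where it lies on the other strand), a common promoter element bound by the factor NF-Y, and in Shmt2 the palindromic element bound by NRF1, a regulator of many genes for mitochondrial proteins. Phgdh is at chr3:98339970-98340219, Psat1 at chr19:15925060-15925309, Mthfd2 at chr6:83317605-83317854 and Shmt2 at chr10:127522445-127522694, all on the minus strand.
Phgdh: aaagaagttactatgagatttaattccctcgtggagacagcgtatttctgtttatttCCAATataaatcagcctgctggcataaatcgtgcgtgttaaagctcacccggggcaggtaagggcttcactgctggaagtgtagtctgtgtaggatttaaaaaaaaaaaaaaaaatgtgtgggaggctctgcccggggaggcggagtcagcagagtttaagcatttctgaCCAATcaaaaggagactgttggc
Psat1: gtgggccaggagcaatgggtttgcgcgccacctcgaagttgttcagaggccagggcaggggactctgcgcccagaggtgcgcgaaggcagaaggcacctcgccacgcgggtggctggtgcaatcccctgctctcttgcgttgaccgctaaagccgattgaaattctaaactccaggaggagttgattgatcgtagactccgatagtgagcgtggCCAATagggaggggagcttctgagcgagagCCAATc
Mthfd2: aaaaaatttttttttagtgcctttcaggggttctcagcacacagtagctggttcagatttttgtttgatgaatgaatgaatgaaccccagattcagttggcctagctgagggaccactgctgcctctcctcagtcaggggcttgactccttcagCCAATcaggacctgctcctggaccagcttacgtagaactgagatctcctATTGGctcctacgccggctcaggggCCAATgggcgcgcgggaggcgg
Shmt2: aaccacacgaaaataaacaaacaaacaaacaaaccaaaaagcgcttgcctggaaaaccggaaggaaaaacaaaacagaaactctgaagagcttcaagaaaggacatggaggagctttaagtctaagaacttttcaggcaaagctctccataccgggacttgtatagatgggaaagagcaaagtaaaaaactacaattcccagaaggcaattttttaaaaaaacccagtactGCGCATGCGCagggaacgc

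A CCAAT box was present in 6 of the 9 windows, from 6 genes, and 4 of them held more than 1. Psat1 had a further start site, at 15924622, whose window held none. Mthfd2 had 3, at 96, 47 and 22 bases before its start, and Phgdh, Psph and the printed window of Psat1 had 2 each. Shmt1 and Mthfd1 had 1, at 47 and 69 bases. Among the 11745 windows of tested genes 36.0% held a box and 13.1% held at least 2. The NRF1 element of Shmt2, 19 bases before its start, was present in 1.69% of those windows. Both motifs were picked after the sequences had been read. Of the other motifs searched on both strands, the C/EBP-ATF response element TGATGNAA and the E-box CACGTG, the MYC site, were in none of the 9 windows (2.03% and 8.14% of the windows of tested genes). The TEAD element GGAATG was in that of Mthfd1 only (10.4%), and the CRE core TGACGT in that of Mthfd1l only (9.92%). A match describes letters in a window and does not show binding.

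All 3 serine synthesis genes fell, Psph with the smallest fitted decrease. Phgdh (ENSMUSG00000053398; GRCm38 chromosome 3, 98313170 to 98339990, minus strand), the entry enzyme, was at 578, 922, 1080.2 and 641 CPM in WT replicates 1 to 4 and at 589, 268, 273 and 270.4 CPM in knockout replicates 1 to 4. Knockout replicate 1 thus lay within the WT range, while the remaining knockout libraries were close together and far below it. The fitted level was 43.5% of WT (95% interval 26.6 to 71.0; log2 fold change -1.20, SE 0.32, edgeR adjusted p = 0.0144). The exact two-sided permutation p over 70 assignments was 0.0571. Of the 50-base stretches in Phgdh transcripts, 47.8% also occur in transcripts of other annotated genes, most of them in a processed pseudogene. How reads that match several genes were counted is not stated in the labels or notes used, so its level is uncertain.

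Psat1 (ENSMUSG00000024640; chromosome 19, 15904678 to 15947337, minus strand), the aminotransferase of the middle step, varied little among WT libraries, at 817, 919.7, 883 and 854 CPM. The knockout libraries were at 594, 265, 280.4 and 309 CPM, all below WT. The fitted level was 41.7% of WT (27.8 to 62.5; log2 fold change -1.26, SE 0.26, edgeR adjusted p = 0.00537; exact permutation p = 0.0286, the smallest that 70 assignments can give). Psph (ENSMUSG00000029446; chromosome 5, 129765558 to 129787449, minus strand), the phosphatase of the last step, had the lowest level of the branch. It was at 107, 166, 145 and 125 CPM in WT and 116, 57.5, 68.4 and 69.5 CPM in the knockout, where replicate 1 again lay inside the WT range. The fitted level was 57.5% of WT (40.1 to 82.4; log2 fold change -0.80, SE 0.23, edgeR adjusted p = 0.0216; exact permutation p = 0.0571). The call for Psph was lost without WT replicate 2 (adjusted p = 0.0565) or without knockout replicate 2, 3 or 4 (0.0666, 0.0615 and 0.0615). Exons of Psph share 452 bases, 10.4% of their length, with a Cct6a transcript on the opposite strand, whose reads may not be separable from its own. The intervals of Phgdh, Psat1 and Psph overlap, and their differences from each other were not tested.

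The serine hydroxymethyltransferases of both compartments fell. Shmt2 (ENSMUSG00000025403; chromosome 10, 127517123 to 127522444, minus strand), the mitochondrial enzyme, had the lowest fitted level of the 9 genes relative to WT. It was at 587, 759.7, 684 and 741 CPM in WT and at 444, 155, 179.7 and 186 CPM in the knockout, without overlap. Its fitted level in the knockout was 34.8% of WT (21.1 to 57.5; log2 fold change -1.52, SE 0.32, edgeR adjusted p = 0.00598). Shmt1 (ENSMUSG00000020534; chromosome 11, 60788104 to 60811718, minus strand), the cytosolic enzyme, was at 71.5, 63.8, 77.7 and 76.6 CPM in WT and at 43.4, 30.2, 21.8 and 21.2 CPM in the knockout, also without overlap. In the fit it was at 40.3% of WT (28.1 to 57.6; log2 fold change -1.31, SE 0.23, edgeR adjusted p = 0.00275). The exact permutation p was 0.0286 for both genes. Per kilobase of exon, Shmt2 exceeded Shmt1 by 10.3 to 14.9 times in WT libraries and by 6.40 to 12.8 times in knockout libraries, ranges that overlap. Exons of Shmt1 share 184 bases with Smcr8 on the opposite strand (96.4 CPM in WT and 88.8 in the knockout, not called).

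Among the 9 genes, those for MTHFD enzymes of mitochondria and cytosol were all lower. Mthfd1l (ENSMUSG00000040675; chromosome 10, 3973118 to 4167081, plus strand), the mitochondrial formate producer, had the smallest p of the 9 genes. It was at 220.2, 213, 203 and 232 CPM in WT and 115, 66.6, 68.4 and 73.3 CPM in the knockout, so that even the highest knockout library was well below WT. In the fit Mthfd1l was at 37.2% of WT (27.7 to 50.01; log2 fold change -1.43, SE 0.19, edgeR adjusted p = 0.00094). Mthfd1 (ENSMUSG00000021048; chromosome 12, 76255298 to 76319803, plus strand), the cytosolic enzyme that joins formate to folate, was at 206, 209.8, 224 and 203 CPM in WT and 137, 80.6, 73.2 and 73.6 CPM in the knockout. The fitted level was 43.3% of WT (31.2 to 60.1; log2 fold change -1.21, SE 0.21, edgeR adjusted p = 0.00267). For both genes the WT libraries were within a narrow band and the knockout values lay wholly below it (exact permutation p = 0.0286 each).

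Mthfd2 (ENSMUSG00000005667; chromosome 6, 83305691 to 83325908, minus strand), the mitochondrial dehydrogenase and cyclohydrolase, was more variable. WT libraries were at 267, 448, 383 and 330.1 CPM and knockout libraries at 255, 92.1, 165 and 193 CPM. The gap between the groups was narrow, since knockout replicate 1 came close to WT replicate 1, and the lowest value was that of knockout replicate 2. The fitted level was 49.4% of WT (31.6 to 77.2; log2 fold change -1.02, SE 0.29, edgeR adjusted p = 0.0195; exact permutation p = 0.0286). Its call was lost without knockout replicate 3 (adjusted p = 0.0531).

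Aldh1l2 (ENSMUSG00000020256; chromosome 10, 83487450 to 83534140, minus strand), the mitochondrial formyl-tetrahydrofolate dehydrogenase, had another order among the knockout libraries. It was at 351, 471, 292 and 439.8 CPM in WT and at 143, 42.4, 187 and 235 CPM in the knockout. Here replicate 1 was not the highest, and replicate 2 stood far below the rest. The fitted level was 39.1% of WT (20.3 to 75.3; log2 fold change -1.35, SE 0.42, edgeR adjusted p = 0.0286; exact permutation p = 0.0286). This was the least certain call: it was lost without WT replicate 1, 2 or 4 (adjusted p = 0.0502, 0.0597 and 0.0622), without knockout replicate 1 or 3 (0.0508 and 0.0507) and with library size as the only scaling (0.0518). Exons of Aldh1l2 share 1056 bases, 14.1% of their length, with D10Wsu102e on the opposite strand, which was also called lower (125 to 75.6 CPM, edgeR adjusted p = 0.00681). Whether counting used the strand is likewise not stated, so the reads of this stretch cannot be told apart.

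**Figure D2:**
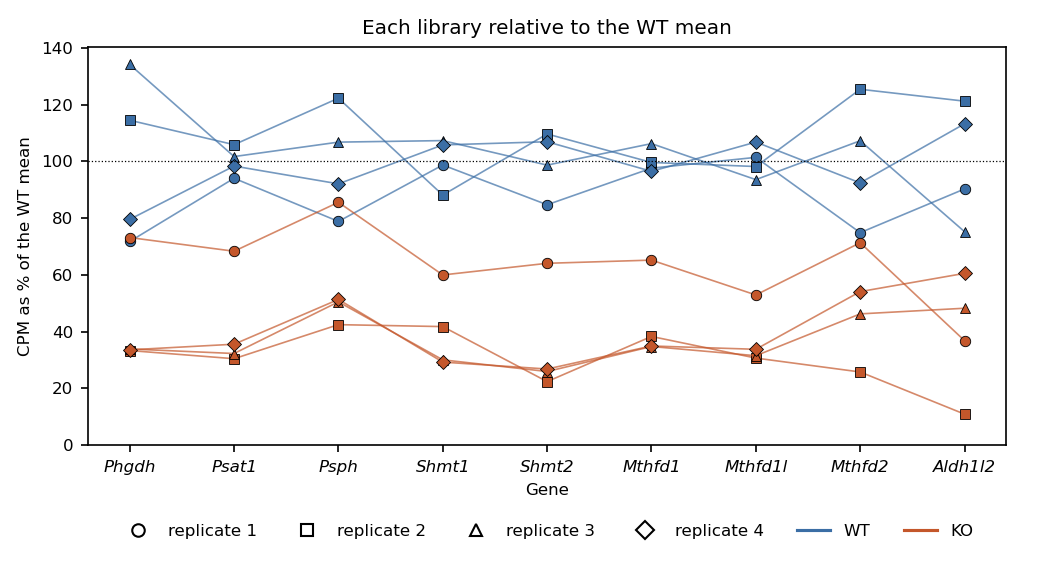
CPM of each library as a percentage of the WT mean of the same gene, with 1 line per library (WT blue, knockout orange) and a symbol for each replicate. Knockout replicates 3 and 4 run together, replicate 1 (circle) is above them except at Aldh1l2, and replicate 2 (square) drops at Mthfd2 and Aldh1l2.

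The levels of the 9 genes can be set beside each other per kilobase of exon. In WT, Phgdh was highest at 324 ± 95.2 CPM per kilobase (SD, n = 4), followed by Shmt2 at 223 ± 25.0, Psat1 at 204 ± 10.3 and Mthfd2 at 102.4 ± 22.0. Aldh1l2 (51.8 ± 10.9), Mthfd1l (48.9 ± 2.73) and Mthfd1 (47.4 ± 2.07) formed a group whose ranges overlap. Psph at 31.3 ± 5.86 and Shmt1 at 18.6 ± 1.63 were lowest. Shmt2 and Psat1 also had overlapping ranges in WT, and Phgdh, from 232 to 435, overlapped Shmt2 but lay above Psat1. In the knockout the order was Phgdh (141 ± 64.1), Psat1 (85.1 ± 36.6), Shmt2 (77.5 ± 43.7) and Mthfd2 (50.6 ± 19.4). Mthfd1, Aldh1l2, Mthfd1l and Psph followed between 20.5 and 18.0, and Shmt1 was again last at 7.51 ± 2.67. In each genotype the same 4 genes were thus at the top, and in the knockout the ranges of neighbours in the order overlapped, except that Shmt1 lay wholly below Psph.

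Some proportions within the pathway differed between the genotypes, and no test was run on them. The ratio of Phgdh to Psph per kilobase was 8.95 to 13.0 in WT libraries and 6.77 to 8.85 in knockout libraries, and that of Psat1 to Psph was 5.65 to 7.79 against 4.17 to 5.21. Neither range overlapped between genotypes, so both partners were lower relative to Psph in every knockout library than in any WT library. The gap for Phgdh was narrow, and the limits given above for reads of Phgdh and Psph apply here too. Mitochondrial Mthfd1l and cytosolic Mthfd1 had ratios of 0.909 to 1.14 in WT and 0.827 to 0.998 in the knockout, which overlap. Ranges also overlapped for Mthfd2 to Mthfd1 (1.66 to 2.72 in WT, 1.45 to 3.35 in the knockout). The same held for Aldh1l2 to Mthfd2 (0.354 to 0.619 and 0.214 to 0.565). Aldh1l2 relative to Mthfd1l, the alternative fates of the mitochondrial carbon unit, was at 0.85 to 1.31 in WT, 0.736 and 0.376 in knockout replicates 1 and 2, and 1.62 and 1.90 in replicates 3 and 4. The knockout libraries therefore lay on both sides of WT for this ratio.

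Among 35 other genes of folate, glycine and serine handling, 27 passed the filter on low counts, of which 10 were lower, 5 higher and 12 not called, with a median log2 fold change of -0.35. Over all rows tested, 20.6% were called lower and 20.9% higher. The list of 35 genes was written with earlier results of these data known. The largest decrease was that of Slc19a1, the plasma membrane folate carrier, from 61.2, 47.1, 70.9 and 65.2 CPM in WT to 23.9, 17.8, 20.6 and 22.8 CPM in the knockout (log2 fold change -1.52, SE 0.17, edgeR adjusted p = 0.000492). Knockout replicate 1 was close to its group here. Sfxn1, the mitochondrial serine transporter, fell from 233 ± 47.3 to 96.8 ± 20.4 CPM (edgeR adjusted p = 0.00173). Slc25a32, the carrier that brings folate into mitochondria, was at 72.1 ± 6.50 CPM in WT and fell to 41.6 ± 4.88 CPM (edgeR adjusted p = 0.00278). Fpgs, which traps folate in the cell by adding glutamates, went from 53.5 ± 11.1 to 26.0 ± 6.90 CPM (edgeR adjusted p = 0.00532). Slc46a1, another folate importer, named after its values were seen, was not called (log2 fold change 0.13, edgeR adjusted p = 0.682).

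Genes that use the carbon unit fell too. Atic and Gart, which place formyl groups into the purine ring, fell from 383 ± 42.7 to 169 ± 44.9 CPM and from 169.8 ± 10.7 to 92.8 ± 22.6 CPM (edgeR adjusted p = 0.00217 and 0.00451). Mtr, methionine synthase, and Mtrr, its reductase, fell by 0.82 and 0.73 on the log2 scale (edgeR adjusted p = 0.00886 and 0.00761). Gcsh, of the glycine cleavage system, picked out once its values were known, was also lower (-0.84). Tyms, the thymidylate synthase, likewise named, did not pass (-1.16, SE 0.48, edgeR adjusted p = 0.0778): its knockout values of 92.0, 35.6, 18.3 and 16.5 CPM lay on both sides of the lowest WT value of 79.0 CPM. The genes that rose were expressed at low levels, except Srr. Aldh1l1, the cytosolic counterpart of Aldh1l2, rose from 0.0849 ± 0.102 to 1.14 ± 0.213 CPM (edgeR adjusted p = 0.00622) and Mthfs from 1.02 ± 0.362 to 3.75 ± 1.51 CPM (edgeR adjusted p = 0.0065). Amt, Srr and Sdsl, picked in the same way, were the others. Mthfd2l, a paralog of Mthfd2, also named after its values were seen, did not pass (log2 fold change -0.35).

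**Figure D3:**
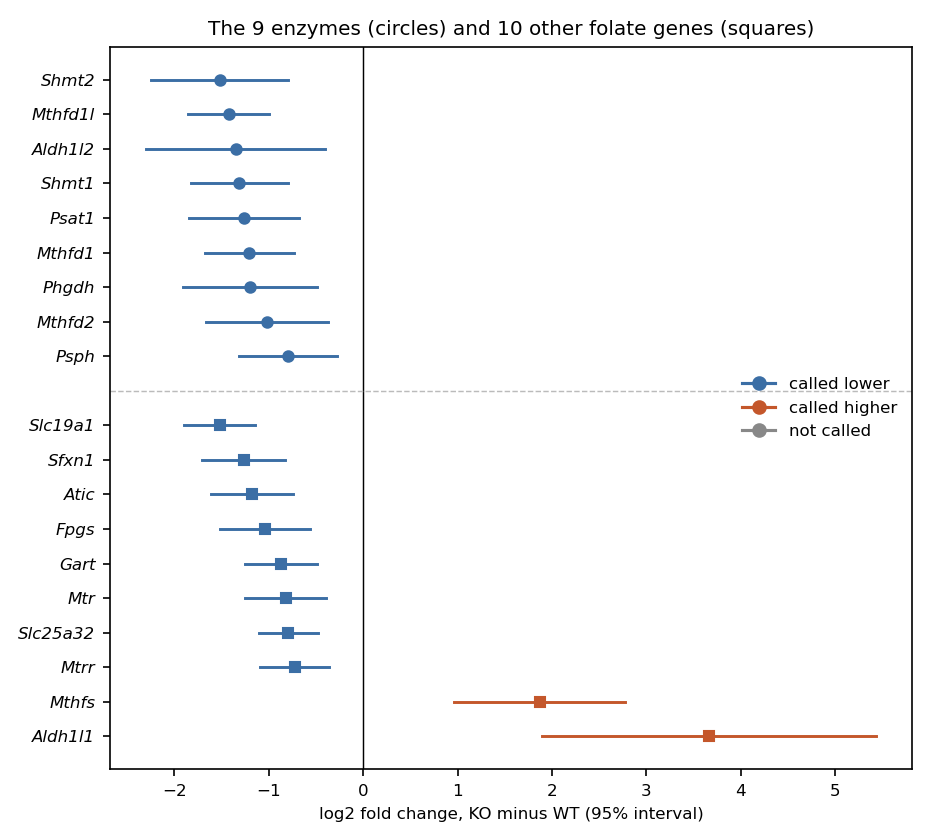
Log2 fold change (KO minus WT) with its 95% interval for the 9 enzymes (circles, top) and the 10 other folate and one-carbon genes with the smallest p (squares), coloured by the edgeR call. All 9 circles are on the negative side, while the squares hold 8 decreases and 2 increases, Aldh1l1 and Mthfs.

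At the point of glycolysis where serine synthesis branches off, the changes were mixed. Of 9 genes from Gapdh to Pkm, 3 were lower, 2 higher and 4 not called. Among all rows tested, 20.6% were called lower and 20.9% higher. Pgam1, the mutase that competes with PHGDH for 3-phosphoglycerate, fell from 1018 ± 284 to 421 ± 185 CPM (edgeR adjusted p = 0.0112). Eno1, an enolase gene further down, went from 1789 ± 175 to 869 ± 444 CPM (edgeR adjusted p = 0.0235). Pgk1, which makes 3-phosphoglycerate, did not pass (log2 fold change -0.61, edgeR adjusted p = 0.0722). It was called lower by the DESeq2 Wald test (adjusted p = 0.0304), by limma-voom (0.0433) and without knockout replicate 1 (0.00202), and its sign turned with the G2/M covariate (0.074). Gapdh was lower (-2.25, SE 0.55) with WT values spread from 38.3 to 279 CPM. Its knockout values, 17.7 to 56.6 CPM, overlapped that range, and whether its reads are shared with other genes was not examined. Eno2 and Pgam2, paralogs at lower levels, rose by 1.39 and 0.88. The call of Eno1 was lost without knockout replicate 2, 3 or 4 (adjusted p = 0.0597 to 0.0688) and that of Pgam2 with the replicate block (0.0924) or without WT replicate 2, 3 or 4 or knockout replicate 2 or 3 (0.059 to 0.0979). With summed WT pairs Pgam1, Eno1 and Pgam2 all lost theirs (0.0507, 0.0936 and 0.118).

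Atf4 and Myc, which encode known activators of these genes, were examined beside them. Atf4 did not pass the test: it was at 522, 958, 865 and 733 CPM in WT and 637, 384, 546 and 602 CPM in the knockout, overlapping ranges (log2 fold change -0.51, SE 0.23, edgeR adjusted p = 0.104). Without WT replicate 1, its lowest WT library, it was called lower (-0.66, adjusted p = 0.0454). ATF4 acts mainly through the translation of its mRNA, which these counts do not measure. A list of 40 stress-response and amino acid genes linked to ATF4 held 41 rows, since Ddit3 is on 2, and 37 were tested. Of these, 13 were lower, 5 higher and 19 not called, with a median log2 fold change of -0.33. The shares over all rows tested were 20.6% lower and 20.9% higher. Asns, asparagine synthetase, fell from 760.1 ± 139 to 314 ± 110.2 CPM (edgeR adjusted p = 0.00622), Slc7a5, the large neutral amino acid transporter, from 638 ± 88.8 to 217 ± 77.8 CPM (0.00241), and Gpt2, mitochondrial alanine transaminase, from 156 ± 39.1 to 60.8 ± 20.9 CPM (0.00557). Nars, an aminoacyl-tRNA synthetase gene, and Stc2 fell by 1.12 and 1.79 on the log2 scale. Cth, of transsulfuration, rose from 0.137 ± 0.112 to 2.86 ± 1.23 CPM, and Ddit3, the stress factor CHOP, named after its values were seen, had a log2 fold change of 1.00 (edgeR adjusted p = 0.0439).

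Myc was at 263, 124, 139 and 298 CPM in WT and 73.4, 64.5, 128 and 139 CPM in the knockout (log2 fold change -1.03, SE 0.35, edgeR adjusted p = 0.0384). Its ranges overlapped, and WT replicates 1 and 4 were the high ones. The Myc call was lost with upper-quartile factors (adjusted p = 0.0739), library size only (0.0831), the filter at 5 CPM (0.0544) or summed WT pairs (0.0828), and without WT replicate 1 or 4 (0.0955 and 0.104) or knockout replicate 1, 2 or 3 (0.0747, 0.105 and 0.0557). Its partner Max had a log2 fold change of -0.75 (edgeR adjusted p = 0.0301), a call that was lost with upper-quartile factors (0.0602), library size only (0.0598), the replicate block (0.0523) or summed WT pairs (0.0597), and without WT replicate 1 or 4 or knockout replicate 2, 3 or 4 (0.0707 to 0.0826). The MYC antagonists Mxd4 and Mxd1 rose by 3.17 and 1.26 (edgeR adjusted p = 0.00053 and 0.00133). Mxd4 went from 13.5 ± 6.36 to 122 ± 26.9 CPM without overlap. Mxd3 and Mnt did not pass (edgeR adjusted p = 0.0526 and 0.24). Mxd3, at -1.59, was called lower with DESeq2 size factors (adjusted p = 0.049), no filter (0.0381), the DESeq2 Wald test (0.00956), limma-voom (0.0126) or the replicate block (0.0236) and without knockout replicate 1 (0.00201), and its sign turned with the G2/M covariate (0.22).

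The spread among the knockout libraries followed 2 patterns. Knockout replicate 1 had the highest knockout value for 8 of the 9 enzymes, 1.65 to 2.56 times the mean of replicates 2 to 4, with Aldh1l2 the exception at 0.923. Among all tested rows that library was highest for 40.9%, and among rows called lower for 71.3%. It was also highest for all 20 genes of the G2/M list, whose summed level was 6979.7, 5069, 4852 and 5866 CPM in WT and 3591, 1513, 901 and 732 CPM in the knockout. Of these 20 genes 15 were called lower, against 20.6% of all rows tested. The 15 included Mki67, a proliferation marker (941 ± 397 to 208 ± 128 CPM), and Top2a (647 ± 17.5 to 235 ± 149 CPM). The summed levels of the G2/M list and of the 9 enzymes were both lower in the knockout libraries. Among these libraries both sums were highest in replicate 1, though Aldh1l2 by itself was not. Within WT, and among knockout replicates 2 to 4, the order of the sums was largely the reverse. WT replicate 1 had the highest G2/M sum and the lowest enzyme sum of WT (3204 CPM, against 3642 to 4172), and among knockout replicates 2 to 4 replicate 2 had the highest G2/M sum and the lowest enzyme sum (1057 CPM, against 1317 and 1431). Not every enzyme followed the enzyme sum. Replicate 2 held the smallest knockout value in 7 of the 9, though by little for Phgdh (268 CPM, against 273 and 270). For Shmt1 and Mthfd1 it was instead the highest of replicates 2 to 4 (30.2 CPM against 21.8 and 21.2, and 80.6 against 73.2 and 73.6). Within WT, Mthfd1l was higher in replicates 1 and 4 (220 and 232 CPM) than in 2 and 3 (213 and 203), while 5 enzymes had the opposite order. The part of the G2/M level in the result was not tested beyond the covariate fit. Adjusting the fit for the G2/M level left log2 fold changes between -1.98 for Aldh1l2 and -0.29 for Psph, none past the threshold (lowest edgeR adjusted p = 0.07, for Mthfd1l).

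The other pattern was in knockout replicate 2, the lowest knockout library for 7 of the 9 enzymes. Over all tested rows that library was lowest for 18.8%, and in the ATF4 list for 28 of 37 rows. Slc7a11, the cystine transporter, named after its values were seen, was at 9.23 CPM there and at 27.9, 66.6 and 75.8 CPM in knockout replicates 1, 3 and 4. Asns was at 171 CPM there against 303 to 436. Without this library Aldh1l2 had a log2 fold change of -1.03 and was still called. Within WT, replicates 2 and 3 exceeded replicates 1 and 4 for 5 of the 9 enzymes, by a ratio of means of 1.64 for Phgdh, 1.39 for Mthfd2 and 1.34 for Psph. That order was found in 35.4% of all rows and the opposite order in 32.8%. Among rows called lower the shares were 11.2% and 65.1%, and among the 9 enzymes 1 showed the opposite order.

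**Figure D4:**
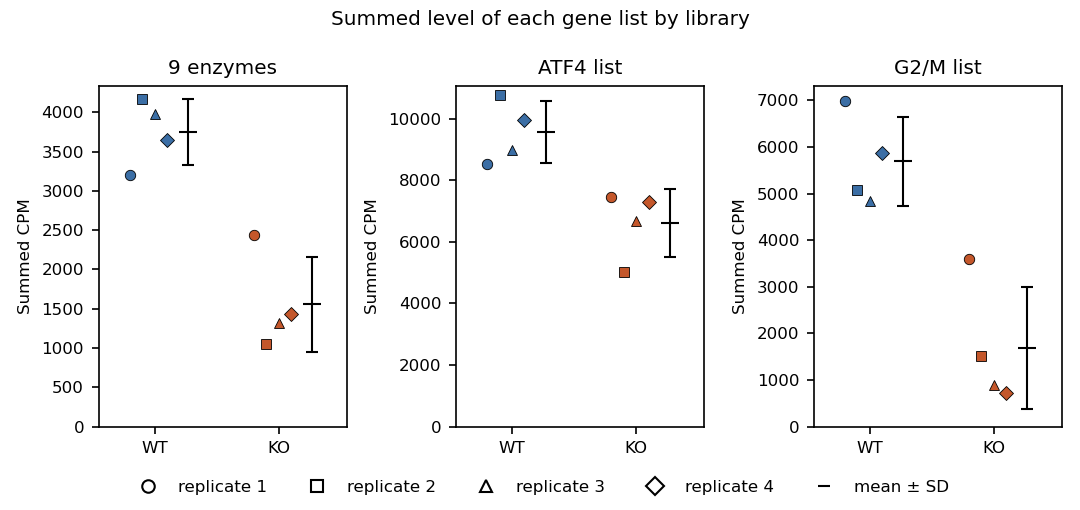
Summed CPM of the 9 enzymes, the ATF4 list and the G2/M list in each WT (blue) and knockout (orange, KO) library, with the mean ± SD in black. All 4 knockout libraries are below WT in each panel, replicate 1 (circle) is the highest of them and replicate 2 (square) is the lowest for the enzymes and the ATF4 list.

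For each of the 9 genes the rows most like it were sought among 9073 annotated genes whose mean level reached 10 CPM, by Pearson's r of log2 CPM over the 8 libraries. The r reflects the difference between 2 groups of 4 and is given as a description. Psat1 and Shmt2 were each other's closest (r = 0.997, and 0.985 after subtraction of the genotype means). Mthfd1 was closest to Ctps, a cytidine triphosphate synthase gene (0.998), with Gart also among its 3 closest (0.997). Shmt1 was closest to Slc35g1 and then to Hmgb2, a chromatin protein gene (0.998 and 0.996), and Mthfd1l to Mtbp (0.996). Phgdh was closest to Nup37, a nucleoporin gene (0.996), and Psph to Gpc1 and then Sars, the seryl-tRNA synthetase gene (0.992 and 0.987). Mthfd2 was closest to Mapk11 (0.987) and the leucyl-tRNA synthetase gene Lars was also among its 3 closest (0.978). Aldh1l2 was closest to Tmcc3 (0.984).

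**Figure D5:**
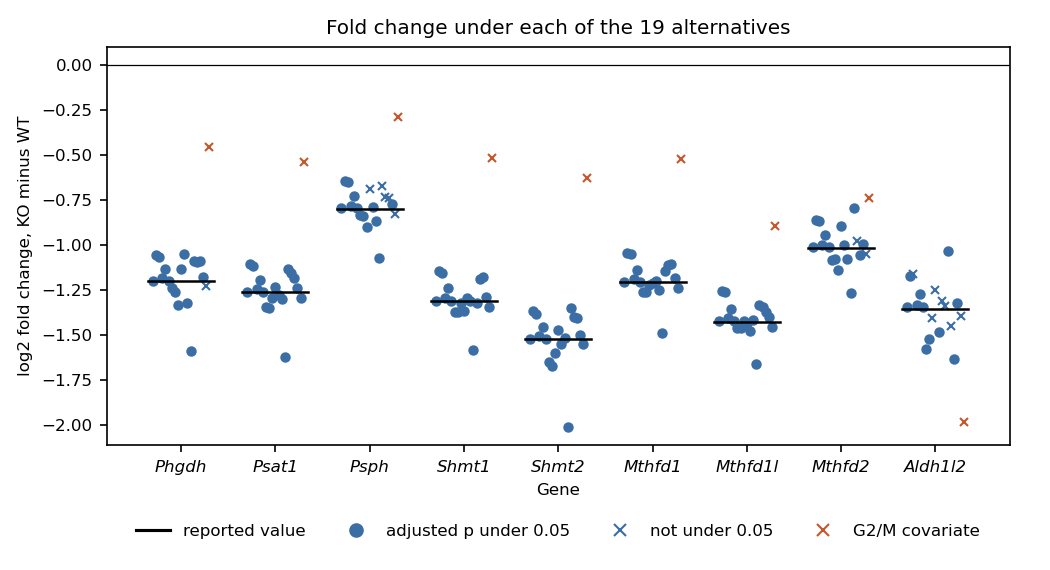
Log2 fold change of each enzyme gene under 19 alternatives, with the reported value as a black line, dots for an adjusted p under 0.05 and crosses for those not under it. All values are negative, and the G2/M covariate (orange) gives the smallest decrease for each gene except Aldh1l2, for which it gives the largest.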

How the data were processed

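Messenger RNA of 8 libraries, 4 per genotype, was sequenced from an Illumina library kit, per the labels' protocols. The submitters' processing notes list HISAT2, StringTie and GRCm38 and give no versions. No source used here states the counting program, its use of strand or its treatment of shared reads. The deposited values are whole-number counts for each gene, in 2 tables with identical content, of which 1 was used. Its 26642 rows hold 22036 annotated genes and 4606 unannotated loci.

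Rows were filtered with filterByExpr (at least 10 counts in enough libraries and 15 in total). After TMM scaling, knockout minus WT was tested two-sided by the quasi-likelihood functions glmQLFit and glmQLFTest of edgeR 4.0.16 under R 4.3.3, with no covariates and Benjamini-Hochberg adjustment over all 13265 rows. The common biological coefficient of variation was 0.294. A standard error is the log2 fold change divided by the square root of F, and the intervals are 95%. The fit was tested on simulated data. Exact permutation tests used log2 CPM (prior count 2). Coordinates and exon lengths come from GENCODE M21 on GRCm38, and 50-base stretches were compared across its transcripts. No 2 libraries of a genotype agreed within sampling noise (chi-square per degree of freedom 34.7 to 257). The members and lists were chosen with earlier results of these data known. Named are the 9 enzymes, Tead1, Tead4, Atf4 and Myc, the genes with the smallest p of each list (up to 10 for the folate list, otherwise 6, of which some are left out), and the closest genes by correlation; others are marked. Some results are not reported here. Alternatives were other scalings (DESeq2 size factors, upper quartile, library size only), no filter or 5 CPM in 4 libraries, DESeq2 1.42.0 (Wald test), limma-voom (limma 3.58.1), the replicate number as a block and each library left out; those chosen after seeing the data were annotated genes only, summed WT pairs and the G2/M covariate.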

Additional observations from a re-analysis of the deposited data

Results flagged for a closer look

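In 92 groups of 4 libraries, of 46 named genes, Dixon's test at the 95% level marked 11 extreme values, where chance marks about 1 group in 20. Genes within a library are not independent. Knockout replicate 1 was the extreme one in 10 of them. For the enzymes it was high at 589 CPM for Phgdh (268 to 273 in the other knockout libraries), 594 for Psat1 (265 to 309), 444 for Shmt2 (155 to 186), 137 for Mthfd1 (73.2 to 80.6) and 115 for Mthfd1l (66.6 to 73.3). For other genes it was high at 127 CPM for Sfxn1, 236 for Atic, 127 for Gart, 36.4 for Fpgs and 1111 for Pgk1. The remaining value was that of Mtrr in WT replicate 1, 40.4 CPM against 31.9 to 33.2.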

How the results depend on the processing

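All 9 enzymes stayed negative under all 19 alternatives. With library size only, Aldh1l2 lost its call (-1.16), and 8 enzymes were called. Upper-quartile factors and library size only shifted the median over all rows (log2 fold change) from 0.02 to 0.20 and the number of rows called lower from 2734 to 1962 and 2001 (higher 2779 to 3580 and 3474). The median of the 9 enzymes then was -1.10 and -1.11. With 1 library left out, 6 to 9 enzymes were called (6 without knockout replicate 3), out of 3809 to 6829 rows. The log2 fold change lay between -1.63 and -1.03 for Aldh1l2, -1.07 and -0.67 for Psph and -1.27 and -0.80 for Mthfd2. ATF4 list genes called higher numbered 2 to 6 with 1 library left out (2 without WT replicate 1 or 4 or knockout replicate 4, 3 without WT or knockout replicate 3), against 5. Under the stricter filter, 1 other folate gene and 3 ATF4 list genes were called higher. With WT replicates summed in pairs, 3134 rows and 5 enzymes were called; the calls of Phgdh (-1.23), Mthfd2 (-1.05), Psph (-0.83) and Aldh1l2 (-1.39) were lost (adjusted p = 0.0576 to 0.0892), 3 other folate genes and 2 ATF4 list genes were higher and 6 ATF4 list genes lower. That fit has fewer samples. With the G2/M covariate 489 rows and 0 enzymes were called by edgeR (4 at an unadjusted p under 0.05), 0 other folate genes were higher and 1 lower, and 0 ATF4 list genes were called in either direction. The enzymes were then at -0.89 (Mthfd1l), -0.52 (Mthfd1), -0.51 (Shmt1), -0.54 (Psat1), -0.63 (Shmt2), -0.45 (Phgdh), -0.74 (Mthfd2), -0.29 (Psph) and -1.98 (Aldh1l2), Pgk1 at 0.074 and Mxd3 at 0.22; the cause was not tested. Of the other named genes called in the report and refitted, Slc19a1 and Mxd4 alone were still called with that covariate. With summed WT pairs Mtr and Top2a also lost their calls. Same-numbered WT and knockout libraries did not deviate together (r from -0.03 to 0.00 over 13265 rows). Differently numbered ones had r from -0.098 to 0.099. With r small throughout, this cannot tell whether the numbers pair the libraries, and the labels do not say. With the replicate number as a block 4683 rows, all 9 enzymes and, of the ATF4 list, 3 higher genes were called. Depth was not limiting for the enzymes, each at 21.2 CPM or more in every library, where 3 counts are 0.0873 to 0.110 CPM; it was for Aldh1l1, Sdsl and Cth.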
